A study of Homo sapiens with 15 samples.

Results

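The clustered histone genes are the HIST1, HIST2, HIST3 and HIST4 genes, which encode the bulk of the linker histone H1 and of the core histones H2A, H2B, H3 and H4. They were taken from the deposited count table by name, as every gene whose symbol begins with HIST1H, HIST2H, HIST3H or HIST4H and does not end as a pseudogene symbol does (PS or P and digits). This gave 75 of 60675 genes, with 6 for H1, 17 for H2A, 23 for H2B, 14 for H3 and 15 for H4, and it left out 14 genes with pseudogene symbols. By the GENCODE 29 annotation 70 members were protein-coding, 4 were pseudogenes despite their names, and HIST2H2BC was without a match.

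RNA from HT1080 cells, a human fibrosarcoma line, was sequenced in 15 libraries, 3 replicates for each of 5 groups, all of them exposed to an inhibitor. The mutant lines had been made from these cells by CRISPR/Cas9 editing. 6CD1m cells carry the KDAC6 substitution H216A in the first catalytic domain, 6CD2m cells carry H611A in the second, and both received 1.0 μm Tubastatin A, a KDAC6 inhibitor, for 2 days. 8CDm cells carry the KDAC8 substitution H143A and received 5.0 μm PCI-34051, a KDAC8 inhibitor, for 2 days. WT cells received Tubastatin A (WT Tub) or PCI-34051 (WT PCI) at these doses for 14 days. A line and its WT comparison therefore differed in mutation and in treatment time, and the effects of these cannot be told apart, nor can those of a line and its drug when 6CD2m and 8CDm cells are compared. Untreated cells are not analysed here, and amino acid substitutions leave no mark in gene counts by which the labels could be checked.

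Histone genes of these clusters are transcribed mainly during S phase, when new DNA has to be packaged. Their mRNAs lack introns and usually end not in a poly(A) tail but in a short stem-loop, which the stem-loop binding protein SLBP recognises for processing, translation and decay. NPAT switches the genes on at the entry into S phase. The RNA was depleted of rRNA rather than selected for poly(A), so that mRNAs of both kinds could be counted. Some members, such as HIST1H1C, HIST1H2AC, HIST1H2BD, HIST1H2BK and HIST2H2BE, are also known to be made in a polyadenylated form.

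Between 10932455 and 19983710 reads per library fell on genes, of which 0.302% to 0.698% were on the members. Replicates of a group correlated at r = 0.962 to 0.988 over genes on the log2 scale. The first replicate lay farther from the others in 6CD1m, WT PCI and WT Tub cells, and counts without these libraries are given beside the results. Fibroblast-type genes were abundant in all libraries, with VIM between 2810 and 4890 and FN1 between 393 and 3080 CPM, that is counts scaled to a common library size, and COL6A1, CD44 and TIMP1 at 29.6 CPM or more. The epithelial and leukocyte genes CDH1, EPCAM, KRT5, PTPRC and CD3E stayed at or below 0.167 CPM, and the endothelial genes PECAM1 and VWF at or below 0.583 and 1.84 CPM.

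The stem-loop was searched for in the annotated transcripts of the members, since it is the feature that most of these mRNAs share. It was present in 33 members in 5 spellings, while many of the other 42 are annotated as coding sequence alone. The sequences below run 5′ to 3′ with the stem-loop in capitals, as DNA from GENCODE 29 transcripts. They show the common form of H2A, H2B and H3 genes in HIST1H3H, HIST1H2BL and HIST2H2BE, the form of HIST1H2BC, the common H4 form in HIST1H4B, and the form found only in HIST1H4I, HIST2H4A and HIST2H4B among the members.
HIST1H3H: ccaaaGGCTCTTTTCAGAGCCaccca
HIST1H2BL: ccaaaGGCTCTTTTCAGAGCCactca
HIST2H2BE: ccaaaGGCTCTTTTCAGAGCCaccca
HIST1H2BC: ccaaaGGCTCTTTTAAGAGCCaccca
HIST1H4B: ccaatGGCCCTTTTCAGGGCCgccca
HIST1H4I: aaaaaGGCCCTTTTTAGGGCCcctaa
HIST2H4A: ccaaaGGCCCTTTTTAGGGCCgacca
The stem of HIST1H4I is that of HIST2H4A, although the bases on either side differ. The annotated transcript ends 40 bases after the stem-loop in HIST1H2BL and 1729 bases after it in HIST2H2BE, one of the genes with a polyadenylated form.

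Of the 75 members, 49 passed the filter on low counts, among them 2 of 6 H1, 13 of 17 H2A, 17 of 23 H2B, 7 of 14 H3 and 10 of 15 H4 genes. Another 11 were listed at 0 in every library, such as HIST1H1D, HIST1H2AD, HIST1H3F and HIST1H4F. Some of these are usually transcribed in cycling cells, and whether the counting or the annotation set them to 0 was not tested, so the zeros do not show a lack of expression. The remaining 15 had at most 41 counts in any library, a number reached by HIST1H4K in 1 library that held all of its reads. HIST2H3A and HIST2H3C had the same value in all 15 libraries, so each count of H3 genes below holds 1 measurement in duplicate. HIST2H4A and HIST2H4B, like HIST2H2AA3 and HIST2H2AA4, are near-identical copies between which the authors' counting divides reads. Per kilobase of annotated exons the most abundant members were HIST2H2AA3 (mean over the libraries 667 CPM per kb), HIST1H3C (616), HIST1H3B (486) and HIST1H1C (467). The leading H4 and H2B genes were HIST1H4B (316) and HIST1H2BC (285).

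The summed level of all members was highest in WT Tub cells and lowest in 6CD2m cells. It was 7386, 6327 and 6684 CPM in the WT Tub libraries, 4927, 6066 and 6844 CPM in 6CD1m, 3224, 3062 and 2965 CPM in 6CD2m, 5216, 4217 and 4327 CPM in WT PCI and 3386, 3643 and 3449 CPM in 8CDm. The 6CD2m libraries were below all others, 8CDm was below both WT groups, and 6CD1m overlapped WT Tub and WT PCI. The ratio of the means was 0.454 for 6CD2m against WT Tub, 0.874 for 6CD1m against WT Tub, 0.761 for 8CDm against WT PCI and 0.675 for WT PCI against WT Tub. In bulk RNA, fewer cells that express these genes and less RNA per such cell cannot be told apart.

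**Figure D1:**
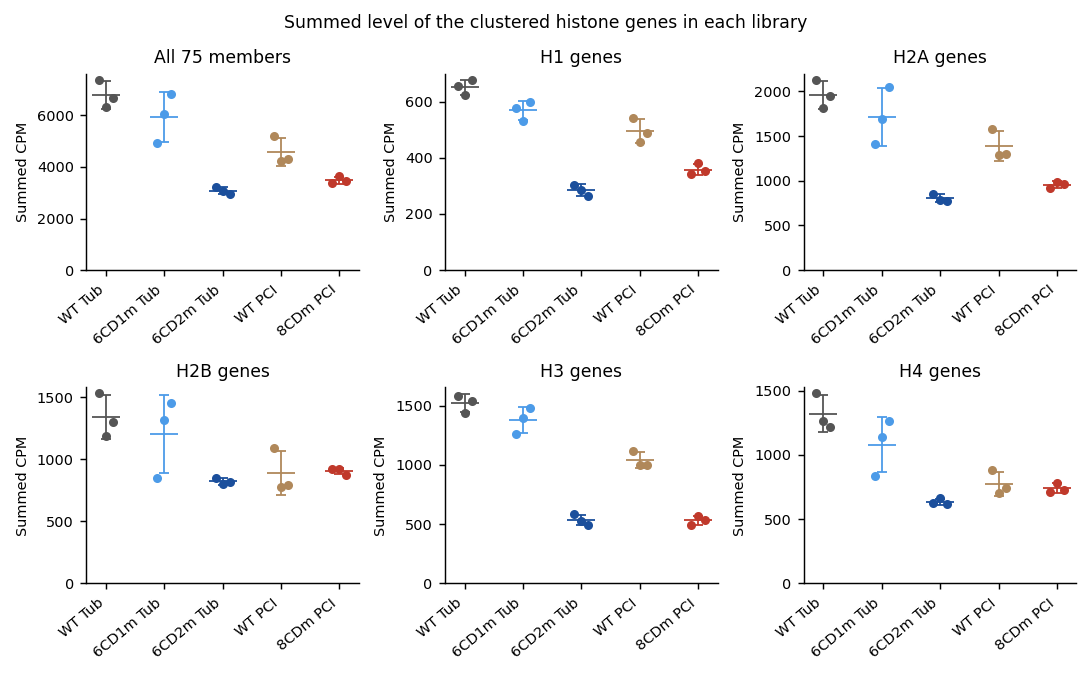
Summed CPM of all 75 members and of each histone class (vertical axes, from 0) in the 5 groups; points are libraries, horizontal lines are means and bars are SD (n = 3). The H3 sum falls from 1522 CPM in WT Tub to 536 CPM in 6CD2m cells, whereas the H2B sums of WT PCI and 8CDm cells overlap.

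Each class was lower in 6CD2m than in WT Tub cells, but not by the same factor. H3, which carries many of the acetylated and methylated tail residues of the nucleosome, went from 1522 ± 77.4 to 536 ± 44.7 CPM (SD, n = 3), a ratio of 0.352. The ratio was 0.410 for H2A, 0.437 for H1, 0.481 for H4 and 0.613 for H2B, and for none of the classes did the libraries overlap. In 8CDm against WT PCI cells the order was similar for H3 (ratio 0.511), H2A (0.689) and H1 (0.721), while H4 (0.955) and H2B (1.02) overlapped. These sums describe the libraries and were not tested.

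For 6CD2m against WT Tub cells, 28 of the 49 members tested fell and 1 rose at a false discovery rate of 0.001 (adjusted p under that value by edgeR's test, used throughout), where 7.22% of all 19535 genes tested fell and 4.61% rose. The median log2 fold change was -1.07 over the members and -0.01 over all genes. All 7 H3 and both H1 genes fell, as did 11 of 13 H2A, 5 of 10 H4 and 3 of 17 H2B genes. The 17 include the pseudogenes HIST2H2BA, HIST2H2BB and HIST2H2BD and the unannotated HIST2H2BC. These were scarce, at means of 0.545 to 6.12 CPM over the libraries, and none of them fell. The H2B count also depended on the cut-off. At a false discovery rate of 0.05, 11 of 17 H2B, 13 of 13 H2A and 8 of 10 H4 genes were lower. The share of all genes lower at this looser rate is not given here. The median log2 fold change was -0.64 for H2B and -1.32 for H2A genes. At the rate of 0.001, 24 members fell and 1 rose without the first WT Tub replicate. Without 6CD2m replicate 3, the library with the largest effect on the count, 22 fell and 1 rose. With near-identical copies counted once, 27 of 46 fell and 1 rose. The 28 that fell with all libraries had a median GC content of 59.5% and exons of 436 bases, the rest 47.8% and 1245 bases.

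Both H1 genes tested encode linker histones, which bind the DNA between nucleosomes. HIST1H1C was at 184, 172 and 158 CPM in 6CD2m and at 411, 395 and 433 CPM in WT Tub libraries. The groups were far apart, with a log2 fold change of -1.27 (SE 0.09, adjusted p = 8.6e-08). HIST1H1E fell by 1.07 on the log2 scale (SE 0.09, adjusted p = 7e-07), from 238 ± 8.33 to 113 ± 6.72 CPM (SD, n = 3). HIST1H1A, HIST1H1B and HIST1H1T had at most 8 counts in a library.

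Among the H2A genes, HIST1H2AB changed most. It was at 19.6, 17.1 and 16.8 CPM in 6CD2m and at 90.4, 83.6 and 92.1 CPM in WT Tub libraries (log2 fold change -2.31, SE 0.12, adjusted p = 2.9e-09). The highest 6CD2m library was thus well below the lowest WT Tub library. HIST2H2AB, at 15.1, 14.5 and 14.0 CPM against 55.7, 57.3 and 52.6 CPM, was separated as clearly (log2 fold change -1.93, SE 0.10, adjusted p = 2.9e-09). The abundant HIST2H2AA3 and HIST2H2AC fell by 1.45 and 1.61, and HIST1H2AC, with its polyadenylated form, fell by 0.90 on the same scale (SE 0.13, adjusted p = 9.4e-05). The call of HIST1H2AC was lost without 6CD2m replicate 2 or 3. HIST2H2AA4 (-1.06, SE 0.25, adjusted p = 0.0047) and HIST1H2AI (-0.68) did not pass.

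H2B genes moved least. The most abundant, HIST1H2BC, was at 185, 184 and 187 CPM in 6CD2m and at 368, 259 and 290 CPM in WT Tub libraries. The groups did not overlap, but the log2 fold change of -0.72 had an SE of 0.22 and did not pass (adjusted p = 0.02). The same held for HIST1H2BD (-0.72, SE 0.16, adjusted p = 0.0027) and HIST1H2BK (-0.75, SE 0.17, adjusted p = 0.0031), and HIST2H2BE was nearest to 0 of these genes (-0.14, SE 0.17, adjusted p = 0.57). Those that fell were HIST1H2BB, HIST1H2BJ and HIST1H2BM, with log2 fold changes of -1.54, -1.20 and -1.22.

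The H3 genes fell by 1.07 to 2.36. HIST1H3D was at 8.64, 3.70 and 5.28 CPM in 6CD2m and at 35.2, 25.7 and 29.2 CPM in WT Tub libraries, and had the lowest log2 fold change of all members (-2.36, SE 0.23, adjusted p = 1.4e-06). HIST1H3C, the most abundant H3 gene per length, was at 146, 128 and 118 CPM against 390, 371 and 401 CPM. Its log2 fold change was -1.57 (SE 0.10, adjusted p = 2.2e-08), and that of HIST1H3B was -1.65 (SE 0.09, adjusted p = 7.1e-09). In each of these genes the highest 6CD2m library lay below the lowest WT Tub library.

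The H4 genes were more varied, although they encode the same protein. HIST1H4A, at 4.50, 4.2 and 3.39 CPM in 6CD2m and 19.3, 18 and 16.9 CPM in WT Tub libraries, fell by 2.16 on the log2 scale (SE 0.14, adjusted p = 2.6e-08). HIST1H4B, at 70.1, 78.5 and 61.3 against 260, 233 and 208 CPM, fell by 1.74 (SE 0.12, adjusted p = 8.1e-08). HIST2H4A and HIST1H4C fell by 1.12 and 1.21, the latter with a call that was lost when any 1 of the 6 libraries was left out. HIST1H4I (0.78, SE 0.30, adjusted p = 0.061) and HIST2H4B (0.75, SE 0.30, adjusted p = 0.064) had values above 0 and did not pass. HIST2H4B divides reads with HIST2H4A, however, and their sum was lower, at 272 to 281 CPM in 6CD2m and 495 to 615 CPM in WT Tub libraries.

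**Figure D2:**
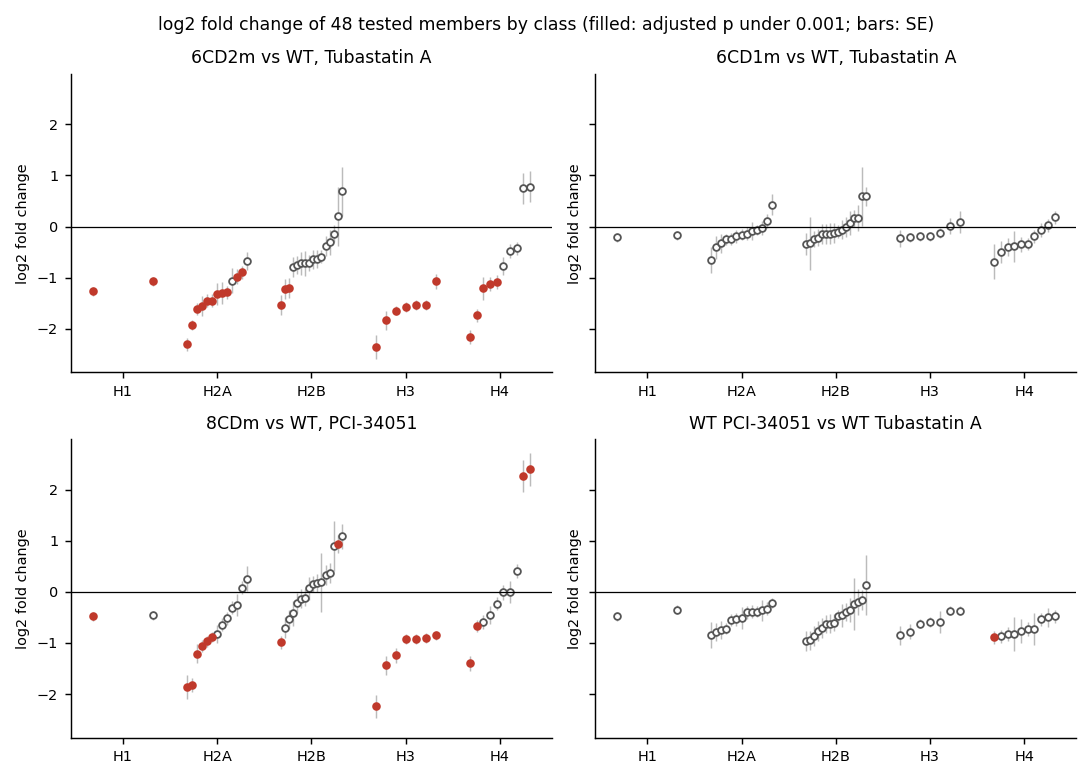
log2 fold change (vertical axis) of the 48 tested members other than HIST2H2BA in 4 comparisons, grouped by class and sorted within it; filled points passed an adjusted p of 0.001 and bars are SE. All 7 H3 points are filled in both line comparisons at the left, none of the points is filled for 6CD1m cells, and 1 is filled for WT PCI against WT Tub.

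HIST2H2BA was the member that rose in 6CD2m cells. It was described after its values were seen, since it is too scarce for the rule by which the other members were named. GENCODE calls it a transcribed unprocessed pseudogene, at chromosome 1, 121108210 to 121117257 (GRCh38). It had 37 to 57 counts in each 6CD2m library, or 2.84, 2.89 and 2.06 CPM, and at most 2 counts in any library of WT Tub cells, at most 1 in 6CD1m cells and 0 in 8CDm cells. The 6CD2m libraries stood alone in this, at least 14.6-fold higher than WT Tub, 11.6-fold higher than 6CD1m and 15.7-fold higher than 8CDm cells, with 3 counts per library taken as the floor. It passed the filter on low counts only through the 6CD2m libraries, so that its calls give no support beyond these counts.

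6CD1m cells, with the same inhibitor, dose and time as 6CD2m cells, had a higher level, close to WT Tub cells. Against WT Tub 0 of 49 members passed in either direction by edgeR or by DESeq2, where 0.271% of all genes rose and 0.522% fell. At an unadjusted p under 0.05 there were 1 higher and 8 lower members, where 14.3% of all genes were higher and 17.7% lower. The median log2 fold change was -0.15, and the largest values were -0.69 for HIST1H4I (SE 0.34) and 0.59 for both HIST1H2BM (SE 0.18) and the unannotated HIST2H2BC (SE 0.58). HIST1H1C, at 364, 329 and 377 CPM in 6CD1m libraries, lay just below the 395 to 433 CPM of WT Tub (-0.21, SE 0.09, adjusted p = 0.13).

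Set directly against 6CD2m cells, 26 of 49 members were higher in 6CD1m cells and 1, HIST2H2BA, was lower, where 6.54% of all genes were higher and 6.65% lower. The median was 0.89 over the members and 0.05 over all genes. The largest differences were those of HIST1H3D (2.45, SE 0.23, adjusted p = 1.2e-06), HIST1H4A (2.34, SE 0.14, adjusted p = 1.5e-08) and HIST1H2AB (2.16, SE 0.12, adjusted p = 7.1e-09). HIST1H3D was at 32.4, 27.7 and 35.8 CPM in 6CD1m libraries, none of which came near the 6CD2m range. By class 10 of 13 H2A, 7 of 7 H3, 4 of 10 H4 and 2 of 2 H1 genes were higher, against 3 of 17 H2B genes. At a false discovery rate of 0.05, 10 of 17 H2B, 12 of 13 H2A and 6 of 10 H4 genes were higher, again without a share of all genes to set beside them. Because 6CD2m libraries enter this comparison and the one with WT Tub, their values are not separate evidence. The first 6CD1m replicate had the lowest member sum of its group, and without it the comparison gave 34 calls in place of 27.

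In 8CDm against WT PCI cells 17 of 49 members fell and 3 rose, where 6.27% of all genes fell and 4.69% rose. The median was -0.46 over the members and -0.04 over all genes. All 7 H3 genes fell, with 6 of 13 H2A, 1 of 2 H1, 2 of 10 H4 and 1 of 17 H2B genes. With offsets that take out each library's trend with GC content 9 fell and 3 rose, and 2 of 7 H3 genes still passed. The share of all genes called with these offsets is not given here. The fold changes were then smaller as well, with a median of -0.22 over the members, -0.60 in place of -0.92 for H3, -0.54 in place of -0.82 for H2A and -0.18 in place of -0.47 for H1 genes. The 17 that fell had a median GC content of 60.6% and exons of 411 bases, the rest 49.1% and 895 bases. Without the first WT PCI replicate 18 members passed. With near-identical copies counted once, 16 of 46 fell and 3 rose.

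HIST1H3D again fell most among the members called. It was at 4.16, 4.23 and 4.35 CPM in 8CDm and at 22.5, 18.3 and 19.3 CPM in WT PCI libraries (log2 fold change -2.24, SE 0.23, adjusted p = 4.1e-06). HIST1H2AJ, at 18.9, 19.0 and 19.6 CPM against 75.8, 62.6 and 63.8 CPM, fell by 1.82 (SE 0.14, adjusted p = 1.6e-07). HIST1H2AK, a scarce gene at 1.31 to 2.33 against 6.76 to 7.95 CPM, fell by 1.86 (SE 0.23, adjusted p = 2.3e-05). In all 3 genes the 8CDm libraries were below every WT PCI library, and HIST1H3D and HIST1H2AJ kept the call under each alternative run, while HIST1H2AK lost it with GC offsets and the replicate block together. HIST1H3B (-0.85), HIST1H3C (-0.90), HIST1H2AB (-1.06) and HIST2H2AC (-0.97) fell here and lost their calls with GC offsets. HIST1H1C (-0.48, SE 0.09, adjusted p = 0.00091) lost its call in 11 of 15 alternatives and HIST1H4B (-0.67) in 10 of 15.

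HIST1H4I, HIST2H4B and HIST2H2BE rose in 8CDm cells. HIST1H4I was at 6.26, 5.15 and 6.55 CPM against 1.44, 1.26 and 0.644 CPM in WT PCI libraries (log2 fold change 2.4, SE 0.32, adjusted p = 4.2e-05). HIST2H4B was at 57, 66.4 and 54.8 against 19.5, 8.98 and 8.18 CPM (2.27, SE 0.31, adjusted p = 5.4e-05). In both genes the groups were widely separated, but HIST2H4B divides reads with HIST2H4A, and their sum, at 325 to 372 CPM in 8CDm and 276 to 347 CPM in WT PCI libraries, overlapped. HIST2H2BE was at 136, 129 and 117 CPM in 8CDm and 84.3, 55.1 and 60 CPM in WT PCI libraries (0.94, SE 0.17, adjusted p = 0.00062). Its 8CDm libraries were above those of every other group, and its call was lost in 7 of 15 alternatives, among them the fit with replicate number and the omission of any 1 of the 8CDm libraries. Of the other genes with a polyadenylated form HIST1H1C fell, as given above, and the rest gave -0.31 (HIST1H2AC), 0.15 (HIST1H2BD) and -0.11 (HIST1H2BK), with adjusted p of 0.081, 0.50 and 0.63.

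**Figure D3:**
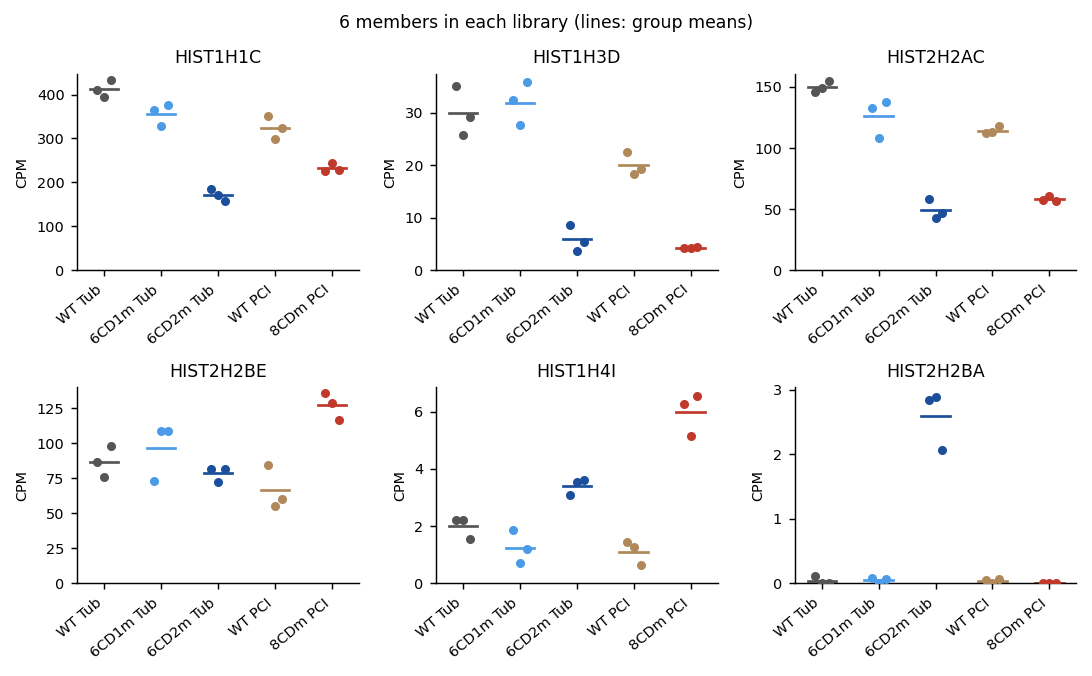
CPM (vertical axes, from 0) of 6 members in each library of the 5 groups; lines are group means. HIST1H1C, HIST1H3D and HIST2H2AC are lowest in 6CD2m and 8CDm cells, HIST2H2BE and HIST1H4I are highest in 8CDm cells, and HIST2H2BA is at 2.06 to 2.89 CPM in 6CD2m cells and at or below 0.111 CPM elsewhere.

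The comparisons of 6CD2m with WT Tub and of 8CDm with WT PCI cells have no library in common. Of the members, 16 fell in both, which is 57.1% of the 28 that fell in 6CD2m and 94.1% of the 17 that fell in 8CDm cells. Of all genes tested 440 fell in both, which is 31.2% of the 1410 that fell in 6CD2m and 35.9% of the 1224 that fell in 8CDm cells. With GC offsets 8 members fell in both, of 28 and 9. The 1 that fell in 8CDm cells alone was HIST1H2BN (-0.99 there and -0.59 in 6CD2m). An interaction term tested the difference between these fold changes. It passed for 5 of 49 members, all of them more negative in the 6CD2m comparison, where 2.65% of all genes passed in that direction and 2.51% in the other. These were HIST1H2AB (-1.25), HIST1H4B (-1.07), HIST2H2AB (-1.05), HIST1H3B (-0.80) and HIST1H1C (-0.79). The term also takes in the difference between the WT groups, with a median of -0.55 over the members for WT PCI against WT Tub. In 6CD2m set directly against 8CDm cells the same genes gave -0.53, -0.17, -0.82, -0.18 and -0.44, and only HIST2H2AB passed. For HIST1H3D the fold changes differed by -0.13 (SE 0.32, adjusted p = 0.82). A fit with a term for replicate number left 2 of the 5, HIST1H2AB and HIST2H2AB, and without WT PCI replicate 1 there were 9 in the same direction.

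WT cells differed by inhibitor in a shallow, broad way. In WT PCI cells 39 of 49 members had every library below every WT Tub library and 0 had every library above, where 13.8% of all genes lay wholly below and 12.1% wholly above. The median log2 fold change was -0.55 over the members and -0.01 over all genes, and 47 of 49 values were below 0. Yet 1 member fell and 0 rose at the false discovery rate of 0.001, where 0.333% of all genes fell and 0.0870% rose. This was HIST1H4B, at 132, 125 and 120 CPM against 260, 233 and 208 CPM (log2 fold change -0.89, SE 0.12, adjusted p = 0.00073). Same-numbered libraries of these groups deviated together, but the labels name no pairing. With replicate number as a block, 1 effect per number shared by all 5 groups, 0 members passed by edgeR at 0.001. A paired test of the WT libraries alone was not run. At an unadjusted p under 0.05 41 members were lower and 0 higher without the block, where 16.4% of all genes were lower and 13.6% higher. DESeq2 called 14 lower, for which no share of all genes is given. Without the first WT PCI replicate 2 members passed, and 0 did without any other 1 of the 6 libraries.

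6CD2m and 8CDm cells, set against each other, had similar member sums, with a ratio of 0.883. Of 49 members 5 were higher and 1 was lower in 6CD2m cells, where 5.60% of all genes were higher and 4.37% lower. The lower one was HIST2H2AB, at 15.1, 14.5 and 14.0 against 23.6, 26.5 and 27.1 CPM (log2 fold change -0.82, SE 0.10, adjusted p = 1.6e-05). It lost the call with GC offsets. The direction of the count depended on the analysis, since DESeq2 called 6 higher and 8 lower and a fit of only these 6 libraries 7 higher and 12 lower. For these fits, too, no share of all genes is given.

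Of the 5 members higher in 6CD2m cells, 4 lie in 1 block of genes, and the other is HIST2H2BA. The HIST1 genes occupy 3 blocks on chromosome 6 of GRCh38, at 25726132 to 26285638 with 34 members, 27125897 to 27147515 with 5, and 27807444 to 27893843 with 16. In the last block all 8 members tested had a log2 fold change above 0 between 6CD2m and 8CDm cells (median 0.90, also 0.89 with GC offsets). The medians of the other blocks were -0.19 and -0.09. The block was chosen for description after its values were seen and was not tested as a group.

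HIST1H2BL, in this last block, was at 53.0, 54.6 and 54.5 CPM in 6CD2m and at 24.5, 28.1 and 23.7 CPM in 8CDm libraries (log2 fold change 1.09, SE 0.20, adjusted p = 0.0009). HIST1H3H was at 120, 108 and 98.6 against 55.1, 58.9 and 54.8 CPM (0.96, SE 0.15, adjusted p = 0.00017). HIST1H2AJ was at 35.6, 38.4 and 33.5 against 18.9, 19.0 and 19.6 CPM (0.90, SE 0.14, adjusted p = 0.00012). In each gene the groups were well apart, but the calls of HIST1H2BL and HIST1H2AJ were lost with GC offsets. That of HIST1H2BL was also lost without any 1 of the 6 libraries, that of HIST1H3H without 5 of them and that of HIST1H2AJ without 3. HIST1H2BN (0.88, SE 0.13, adjusted p = 9e-05) was the other member of the block that passed. Around the block, within 500000 bases, 12 protein-coding genes other than histones were tested, of which 0 passed in this comparison, with a median of 0.06. The sum of the block was 422 ± 21.2 CPM in 6CD2m and 239 ± 6.0 CPM in 8CDm cells (SD, n = 3).

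**Figure D4:**
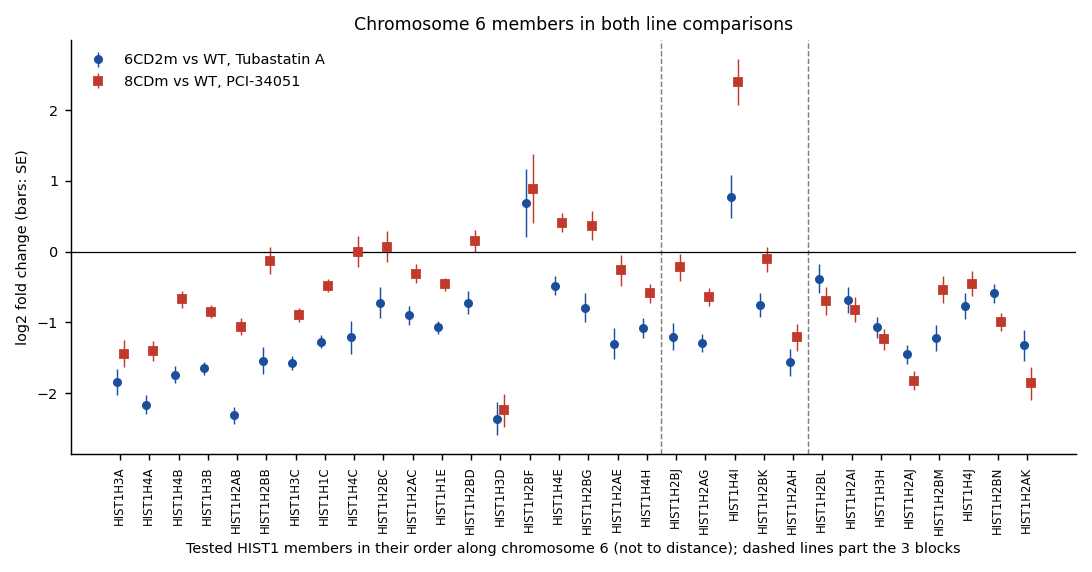
log2 fold change with SE (vertical axis) of the tested HIST1 members in their order on chromosome 6, for 6CD2m against WT Tub (circles) and 8CDm against WT PCI (squares). Squares mostly lie above circles in the first block, and lie below the circles for 6 of 8 genes in the last.

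Many H2A and H2B genes stand head to head, so that 1 stretch of DNA between them serves as the promoter of both. Among the tested members 9 such pairs had annotated starts within 500 bases, from 139 bases for HIST2H2AA3 and HIST2H2BD to 331 for HIST1H2AH and HIST1H2BK. HIST2H2BD is annotated as a pseudogene. In all 9 the H2A gene had the more negative log2 fold change, both for 6CD2m against WT Tub (median difference -0.35) and for 8CDm against WT PCI cells (median difference -0.63). The differences ran from -1.47 to -0.09 and from -1.91 to -0.11, and the smallest were below the SE of the single genes. With GC offsets the counts were again 9 of 9 in both, with a smallest difference of -0.00 for 8CDm against WT PCI cells. The H2A gene had the higher GC content in 7 of 9 pairs. For 6CD1m against WT Tub 7 of 9 pairs had that order (median difference -0.11), and for WT PCI against WT Tub 4 of 9 did (0.06). The pairs are a description and were not tested.

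The widest gap in 6CD2m cells was between HIST2H2AC and HIST2H2BE on chromosome 1, whose starts are 323 bases apart. HIST2H2AC was at 58.1, 42.6 and 47.0 CPM in 6CD2m, 146, 149 and 155 CPM in WT Tub, 57.6, 60.8 and 56.4 CPM in 8CDm and 112, 113 and 118 CPM in WT PCI libraries. It fell in both comparisons (-1.61, SE 0.12, adjusted p = 8e-08, and -0.97, SE 0.11, adjusted p = 1.4e-05). For HIST2H2BE the values were -0.14 and 0.94, as given above. HIST1H2AH and HIST1H2BK, another such pair, gave -1.56 and -0.75 in 6CD2m and -1.21 and -0.11 in 8CDm cells. HIST1H2AG and HIST1H2BJ, by contrast, were close in 6CD2m cells, at -1.29 and -1.20.

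**Figure D5:**
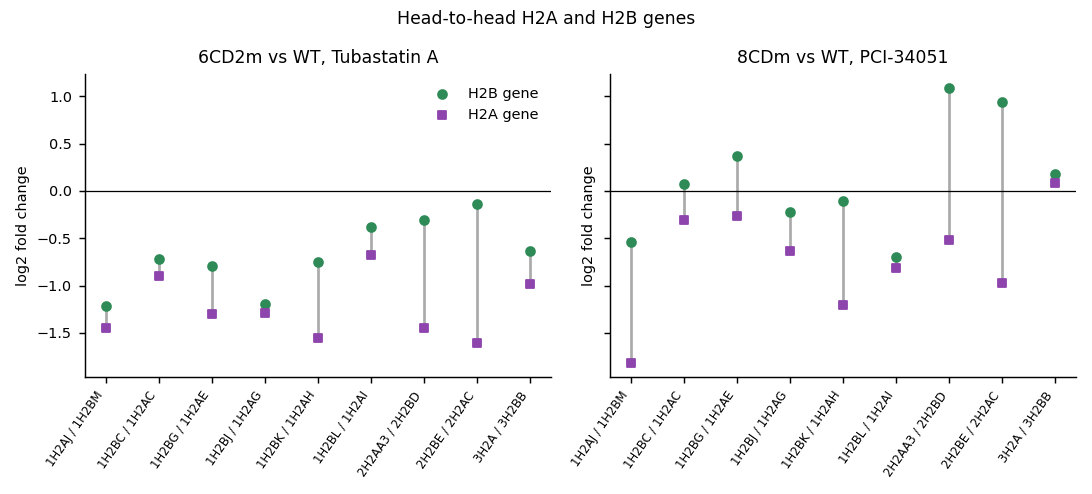
log2 fold change (vertical axis) of the H2A gene (squares) and the H2B gene (circles) of 9 head-to-head pairs, named without the prefix HIST, in 2 comparisons. Every square lies below its circle, and the gap is widest at HIST2H2BE and HIST2H2AC in 6CD2m cells, -1.61 against -0.14.

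Promoters of 60 members were matched in RefSeq (GRCh38.p14, 250 bases before and 50 after the start) and searched on both strands for short motifs known from histone genes. ATTTGCAT, the octamer that POU factors bind, was in 14 of 18 H2B and 10 of 13 H2A promoters and in 0 of 10 H3, 0 of 13 H4 and 0 of 6 H1 promoters, against 1.77% of all 34943 promoters. The windows of head-to-head genes overlap, so the same octamer can count for both the H2A and the H2B gene of a pair. AAACACA, the H1 box, was in 6 of 6 H1, 1 of 13 H2A, 2 of 10 H3, 0 of 18 H2B and 0 of 13 H4 promoters (5.66% of all). GGTCCG, letters of an H4 promoter element, was in 12 of 13 H4 promoters (11.2% of all). It was also in 1 of 13 H2A, 1 of 18 H2B, 1 of 10 H3 and 0 of 6 H1 promoters. CCAAT was in every H1, H2A, H2B and H3 promoter matched and in 3 of 13 of H4 (34.6% of all), and TATAAA in 41 of 60 (11.6% of all). CCAAT can overlap GGTCCG on the other strand by 2 bases. Such matches describe the letters and are not binding sites.
Stretches of 160 bases up to the annotated start are shown for 5 genes, 5′ to 3′ on the strand of the gene, with these motifs on either strand in capitals. HIST1H1C, HIST1H3D and HIST1H4B stand for genes that fell, and HIST2H2AC and HIST2H2BE for the pair that parted.
HIST1H1C, chr6:26056471-26056630, minus strand: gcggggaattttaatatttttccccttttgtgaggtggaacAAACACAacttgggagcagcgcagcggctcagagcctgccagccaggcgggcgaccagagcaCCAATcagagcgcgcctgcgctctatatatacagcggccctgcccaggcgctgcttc
HIST1H3D, chr6:26197287-26197446, minus strand: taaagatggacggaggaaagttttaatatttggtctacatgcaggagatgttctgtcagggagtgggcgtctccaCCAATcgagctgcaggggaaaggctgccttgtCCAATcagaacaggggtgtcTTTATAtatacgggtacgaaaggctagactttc
HIST1H4B, chr6:26027284-26027443, minus strand: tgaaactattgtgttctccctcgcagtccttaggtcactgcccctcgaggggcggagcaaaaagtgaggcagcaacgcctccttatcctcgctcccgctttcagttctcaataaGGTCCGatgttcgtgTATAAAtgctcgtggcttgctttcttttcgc
HIST2H2AC, chr1:149886758-149886917, plus strand: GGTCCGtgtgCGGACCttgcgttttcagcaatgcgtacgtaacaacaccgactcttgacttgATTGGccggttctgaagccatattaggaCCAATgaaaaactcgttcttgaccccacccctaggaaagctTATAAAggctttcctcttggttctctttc
HIST2H2BE, chr1:149886683-149886842, minus strand: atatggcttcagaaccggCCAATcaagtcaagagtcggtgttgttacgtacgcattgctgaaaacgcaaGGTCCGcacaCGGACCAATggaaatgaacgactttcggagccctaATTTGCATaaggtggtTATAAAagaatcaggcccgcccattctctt
The last pair are overlapping stretches read on opposite strands, each with a TATAAA near its own start, and the octamer stands near the start of HIST2H2BE.

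Of 18 genes listed for the transcription and processing of histone mRNA, 17 were tested, and by edgeR 0 passed in 6CD2m against WT Tub, in 8CDm against WT PCI, in 6CD1m against WT Tub or in WT PCI against WT Tub. SLBP was at 41.8 ± 4.78 CPM in 6CD2m and 43.8 ± 5.23 CPM in WT Tub cells (SD, n = 3; log2 fold change -0.07, SE 0.14, adjusted p = 0.75), and in 8CDm against WT PCI cells it gave 0.02 (SE 0.14). NPAT gave 0.25 (SE 0.16, adjusted p = 0.25) and 0.44 (SE 0.16, adjusted p = 0.041). Between 6CD1m and 6CD2m cells SRRT was higher (0.56) and NCBP2 lower (-0.65) in 6CD1m, and CASP8AP2 was higher in 6CD2m than in 8CDm cells (0.83).

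A part of the S phase genes fell as well. Of 20 tested, 9 fell and 0 rose in 6CD2m against WT Tub cells (median -0.63), among them E2F1 (-1.24), TYMS (-1.22), CCNA2 (-1.12), RRM2 (-1.02), MKI67 (-0.93), GINS2 (-0.76), CDC45 (-0.74), MCM5 (-0.67) and MCM3 (-0.55). In 8CDm against WT PCI cells 4 fell (E2F1, CDC6, CDC45 and CDT1, median of the list -0.31), and in 6CD1m against WT Tub and WT PCI against WT Tub 0 passed, with medians of -0.07 and -0.56. Against 6CD2m cells 9 of the 20 were higher in 6CD1m cells, and CDC6 was higher in 6CD2m than in 8CDm cells (1.3). The summed level of the list was 2573 to 3055 CPM in WT Tub, 2322 to 2955 CPM in 6CD1m, 1726 to 1899 CPM in 6CD2m, 1808 to 2256 CPM in WT PCI and 1611 to 1730 CPM in 8CDm libraries. Their part in the values of the members was not tested.

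Histone variants listed as replication-independent were divided. Whether they were transcribed outside S phase in these cells was not tested. Of 11 tested, 5 fell in 6CD2m against WT Tub cells, namely CENPA, the centromeric H3 (-1.70), H2AFZ (-1.49), H1FX (-1.16), H2AFX (-1.11) and H2AFV (-0.91). In 8CDm against WT PCI cells H2AFX fell by 1.3 on the log2 scale, while H2AFY2 (3.59), H1F0, the linker histone of resting cells (1.29), and H2AFJ (0.95) rose. None passed in 6CD1m against WT Tub or in WT PCI against WT Tub cells by edgeR, and 4 were higher in 6CD1m than in 6CD2m cells (CENPA, H2AFZ, H1FX and H2AFX). H1F0 was at 164 ± 14.2 CPM in 8CDm and 71.7 ± 3.79 CPM in 6CD2m cells (SD, n = 3). It was lower in 6CD2m than in 8CDm cells, as were CENPA and H2AFY2, and the interaction term passed for all 3.

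Among 8 histone chaperones ASF1B (-1.02) and CHAF1B (-0.67), which bring new H3 and H4 to replicated DNA, fell in 6CD2m against WT Tub cells, and ATRX rose in 8CDm against WT PCI cells (0.72). ASF1B, NASP and CHAF1A were higher in 6CD1m than in 6CD2m cells. Structural RNAs without a poly(A) tail were followed as a sign of how such RNA was recovered. Of 10 such rows tested 1, an RPPH1 row, fell in 6CD2m against WT Tub cells (-1.16) and was higher in 6CD1m than in 6CD2m cells (1.06), and 0 passed in the other comparisons with WT cells. The medians of the list nevertheless lay on the same side of 0 as those of the members in several comparisons. They were -0.50 in 6CD2m against WT Tub, with 8 of 10 below 0, -0.54 in 8CDm against WT PCI, with 10 of 10 below 0, and 0.79 in 6CD1m against 6CD2m cells, with 0 of 10 below 0. In 6CD1m against WT Tub and in WT PCI against WT Tub they were 0.34 and 0.40, where those of the members were -0.15 and -0.55. Their summed level was 32470 to 43170 CPM in 6CD2m, 36910 to 48280 CPM in WT Tub, 46340 to 59160 CPM in 6CD1m, 42390 to 46950 CPM in 8CDm and 45720 to 64990 CPM in WT PCI libraries, and their part in the values of the members was not tested.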

How the data were processed

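Total RNA of HT1080 cells was depleted of rRNA with a Ribo-Zero plus kit and sequenced in paired reads. The submitters' processing notes name Trimmomatic 0.39, Bowtie2 2.4.5, RSEM 1.3.3, DESeq2 1.38.2 and GRCh38, without the annotation release. The table deposited by the authors holds expected counts from RSEM, which were rounded here (21.8% of nonzero values were not whole). RSEM divides reads between similar genes, and whether strand was used is not given in the sources used here. Positions, lengths and GC content came from GENCODE 29 by Ensembl identifier (57055 of 60675 matched).

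Libraries were scaled by TMM and genes filtered with edgeR's filterByExpr, which kept 19535. All 15 libraries entered 1 fit with a mean per group, tested by edgeR's quasi-likelihood test (edgeR 4.0.16, limma 3.58.1, R 4.3.3) with Benjamini-Hochberg adjustment over all genes tested, at the study's false discovery rate of 0.001. CPM are relative to the scaled library size, and fold changes are log2. The biological coefficient of variation was 16.4%, and counting errors and the floor of 3 counts cover counting only. The labels call the samples replicates without naming separate cultures, so p-values measure the spread between these samples. Tables and plots were made in Python 3.11.15 with numpy 2.4.6, pandas 2.3.3 and matplotlib 3.10.9. The fit was tested on simulated data for 6CD2m against WT Tub, with 200 genes changed. At 0.001 it recovered 28.5% of 2-fold and 65% of 4-fold changes, with 0 false calls. A gene of the marker list is not reported here.

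Members and lists were chosen with earlier results of these data known. Members were named by rule: the 3 highest per kb in each class, up to 3 in each direction and comparison with the largest called log2 fold change (mean log2 CPM 1 or more), and 5 with a polyadenylated form; other members were named after their values were seen. Same-numbered WT PCI and WT Tub libraries deviated together from their group means (r = 0.505, 0.235 and 0.169). In the other comparisons r was -0.412 to 0.189. The labels name no pairing, and whether the numbers stand for pairs was not tested. Replicate number was therefore tried as a block, with 1 effect per number shared by all 5 groups. Alternatives were upper-quartile scaling, TMM computed with mitochondrial and small RNA genes left out, DESeq2 1.42.0, other filters, a false discovery rate of 0.05, only the groups compared, the replicate block, offsets for GC content (a spline with 5 degrees of freedom) and leaving out each library.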

Additional observations from a re-analysis of the deposited data

Results flagged for a closer look

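The line comparisons differed from each other in 5 members by the test of the difference itself, that of 6CD2m against WT Tub minus that of 8CDm against WT PCI cells on the log2 scale (edgeR, adjusted over all genes). The difference was -1.25 for HIST1H2AB (adjusted p = 6.5e-05) and -1.05 for HIST2H2AB (adjusted p = 7.1e-05), and each kept its call in 20 of 21 alternatives, the exception being GC offsets with the replicate block. It was -1.07 for HIST1H4B (adjusted p = 0.00044), -0.80 for HIST1H3B (adjusted p = 0.00046) and -0.79 for HIST1H1C (adjusted p = 0.00043), and these lost their calls in 11, 13 and 13 of 21 alternatives. The WT groups enter this difference as well, and directly between 6CD2m and 8CDm cells only HIST2H2AB of the 5 passed. No group held 4 or more libraries, so the values of single members were not searched for outlying libraries.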

How the results depend on the processing

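Counts are of members called, out of 49 unless stated. Shares of all genes called under these alternatives are not given. For 6CD2m against WT Tub (29), 6CD1m against WT Tub (0) and 6CD1m against 6CD2m cells (27) no alternative moved the count by over 1.5 times; leaving out single libraries gave 23 to 26, 0 to 0 and 23 to 34. For 8CDm against WT PCI cells (20), GC offsets gave 12 and, with the replicate block, 11; leaving out libraries gave 16 to 18, and counting near-identical copies once, chosen after seeing the data, gave 19. For WT PCI against WT Tub (1), DESeq2 gave 14, GC offsets 2, a minimum of 10 counts 3, no filter 11, upper-quartile scaling 2, a false discovery rate of 0.05 30, and only the groups compared, the replicate block and GC offsets with the block 0 each; leaving out libraries gave 0 to 2. For 6CD2m against 8CDm cells (6, of which 5 higher), GC offsets with or without the block gave 3 and no filter 11, while DESeq2 (14), only the groups compared (19) and a false discovery rate of 0.05 (16) called more members lower than higher; leaving out libraries gave 3 to 5. For the difference between the line comparisons (5), DESeq2 gave 16, no filter 15, only the groups compared 12, a false discovery rate of 0.05 31, the replicate block 2 and GC offsets with the block 0; leaving out libraries gave 2 to 9, the highest without WT PCI replicate 1. The cause was not tested.

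The replicate block gave 27 calls for 6CD2m against WT Tub and 17 for 8CDm against WT PCI cells. It gave 24 for 6CD1m against 6CD2m and 5 for 6CD2m against 8CDm cells. The labels name no pairing, and r between same-numbered libraries was -0.412 to 0.189 outside WT PCI against WT Tub. Class sums, as log2 ratios, moved by more than the replicate SD in 2 cases, H1 in 6CD1m against WT Tub under upper-quartile scaling (-0.08 from -0.20) and H2B in 6CD2m against 8CDm under library totals (-0.07 from -0.14). No named member's call reversed its sign. With 3 libraries a group and some members under 10 CPM, small changes of scarce members were not detectable at this depth.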
